A study of Rattus norvegicus with 12 samples.

Results

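The genes described here are those of oxidative phosphorylation, taken as every gene whose pathway annotation in the deposited expression table holds the rat KEGG pathway rno00190. The rule found 136 of the 21556 genes in the table. Of these, 13 are encoded by the mitochondrial DNA and 123 by the nucleus. All 13 mitochondrial genes and 111 nuclear genes reached the mean level required for testing, 0.5 FPKM over the 12 libraries, where FPKM is the number of read fragments scaled by the length of the gene and by the depth of the library. By class, the nuclear genes were 39 of complex I, 4 of complex II, 9 of complex III, 18 of complex IV, 15 of complex V, 1 for cytochrome c, 4 for complex IV assembly, 23 of the vacuolar proton pump (V-ATPase), 3 pyrophosphatases, 1 gastric proton pump gene (Atp12a), 5 pseudogene copies and 1 gene with no assignment (LOC689271). The 12 genes that did not reach the minimum were 5 of complex IV, 4 of the V-ATPase, Atp12a, 1 pseudogene copy and LOC689271. By gene ID, 122 members matched RefSeq.

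Oxidative phosphorylation is the process in the inner mitochondrial membrane that makes most ATP in neurons. Complexes I and II pass electrons from NADH and succinate to ubiquinone, complex III passes them on to cytochrome c, and complex IV hands them to oxygen. Complexes I, III and IV pump protons as they do so, and complex V, the ATP synthase, lets the protons flow back to drive ATP synthesis. Every complex except complex II is assembled from subunits of both genomes. The V-ATPase is a related rotary pump that acidifies lysosomes and vesicles, and it is listed in the same pathway.

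RNA was sequenced from ND7/23 cells, a single line made by fusing rat dorsal root ganglion neurons with the mouse neuroblastoma N18Tg2. There were 4 groups of 3 libraries, all sampled at 6 h: untreated control, menthol at 100 μM, which opens the cold-sensing channel TRPM8, Wnt3a at 100 ng/ml, which activates β-catenin signalling, and the combination of menthol and Wnt3a at these doses. The labels do not say whether the 3 libraries of a group came from separate cultures, so p-values measure the spread between these libraries, which may be technical. The libraries held 36914010 to 38836269 reads on genes. Reads were aligned to the rat genome, so how reads from mouse nuclear or mouse mitochondrial transcripts were assigned cannot be told from the table. The neuron label was only partly borne out, since Uchl1 (94.2 to 111 FPKM), Isl1 (9.28 to 17.6 FPKM) and Map2 (6.21 to 7.44 FPKM) were present while Tubb3, Stmn2 and Nefl reached at most 0.0922, 0.0991 and 0.142 FPKM. Of the 14 neuron markers, 10 had a mean under 0.5 FPKM.

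The promoters of the nuclear members were examined for what they share. RefSeq promoters (build GRCr8, 250 bases before to 50 bases after the gene start) were found for 101 of the 123 nuclear members. They were searched on both strands for 5 short motifs. Those of NRF1 (GCGCANGCGC), ETS factors such as GABP (CCGGAAG) and YY1 (AAGATGG) are known from respiratory chain promoters. The cAMP response element (TGACGTCA) and the TCF/LEF motif of Wnt signalling (ATCAAAG) were added for their link to the treatments. The YY1 motif was in 23 promoters (22.8%), against 8.86% of the promoters of tested genes and 7.3% of all promoters. The ETS motif was in 24 (23.8%, against 19.2% and 9.22%) and the NRF1 motif in 17 (16.8%, against 10.9% and 4.71%). The cAMP response element was in 4 (3.96%, against 3.36% and 1.91%) and the TCF/LEF motif in 3 (2.97%, against 2.29% and 3.62%). No motif of the 5 was in 47 promoters. The letters of the YY1 motif include ATG, and whether a match lies at a start codon was not tested. None of the 5 motifs contains another. A match is a description of the letters and not of binding.

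The promoters of 4 subunits are shown because each is the most abundant subunit of its complex with a RefSeq promoter, in complexes I to IV, and each holds a motif, printed in capitals. The promoters of Atp5f1b, the most abundant subunit of complex V, and of Cycs hold none of the 5 motifs and are not printed. That of Ndufb8 holds the YY1 motif, that of Sdhb an ETS motif and a cAMP response element, that of Uqcrh an ETS motif on the opposite strand, and that of Cox4i1 an ETS motif on the opposite strand at 2 places.
Ndufb8 (GRCr8, chr1:253362887-253363186, minus strand): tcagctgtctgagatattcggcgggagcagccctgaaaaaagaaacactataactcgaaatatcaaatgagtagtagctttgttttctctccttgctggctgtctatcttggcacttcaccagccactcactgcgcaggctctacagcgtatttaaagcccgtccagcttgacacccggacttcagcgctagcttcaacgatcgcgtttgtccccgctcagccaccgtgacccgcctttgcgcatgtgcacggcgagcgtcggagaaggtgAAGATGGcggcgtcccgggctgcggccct
Sdhb (GRCr8, chr5:158547684-158547983, plus strand): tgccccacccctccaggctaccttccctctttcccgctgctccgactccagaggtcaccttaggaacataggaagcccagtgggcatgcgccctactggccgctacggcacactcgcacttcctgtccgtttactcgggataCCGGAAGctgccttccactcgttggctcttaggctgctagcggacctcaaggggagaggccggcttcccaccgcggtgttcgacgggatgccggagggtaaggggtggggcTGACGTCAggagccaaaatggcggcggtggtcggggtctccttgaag
Uqcrh (GRCr8, chr5:134790833-134791132, minus strand): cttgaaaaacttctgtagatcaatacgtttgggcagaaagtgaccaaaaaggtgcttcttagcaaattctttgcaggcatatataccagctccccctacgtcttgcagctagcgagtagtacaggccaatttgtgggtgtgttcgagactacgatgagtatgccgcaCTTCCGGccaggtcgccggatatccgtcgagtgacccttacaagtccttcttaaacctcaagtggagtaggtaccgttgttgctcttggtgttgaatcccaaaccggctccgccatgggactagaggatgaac
Cox4i1 (GRCr8, chr19:65630133-65630432, plus strand): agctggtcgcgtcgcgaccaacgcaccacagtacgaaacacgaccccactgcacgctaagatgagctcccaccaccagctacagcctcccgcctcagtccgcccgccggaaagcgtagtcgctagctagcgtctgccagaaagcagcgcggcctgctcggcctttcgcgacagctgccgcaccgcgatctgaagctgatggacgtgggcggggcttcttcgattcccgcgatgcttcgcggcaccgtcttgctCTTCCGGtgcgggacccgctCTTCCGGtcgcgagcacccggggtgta

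The promoters that hold the TCF/LEF motif were those of Ndufa5 and Sdhc, subunits of complexes I and II, and of Ppa1, the cytosolic pyrophosphatase. With Wnt3a, Ndufa5 was at 91.6 ± 5.21 FPKM against 86.5 ± 1.54 in control, Sdhc at 79.3 ± 2.59 against 77.1 ± 1.41, and Ppa1 at 76.1 ± 1.78 against 71.5 ± 1.3 (SD, n = 3). None of the 3 passed the adjusted threshold (limma, adjusted p = 0.463, 0.626 and 0.231).

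The mitochondrially encoded genes were among the most abundant transcripts of these cells. Of the 10 genes with the highest mean FPKM in the whole table, 7 were mitochondrial members, and 12 of the 13 were among the top 50. Their median was 2718.6 FPKM, 34.2 times the median of 79.5 FPKM over the tested nuclear members. COX1, a catalytic subunit of complex IV, stood highest with a mean of 12490.3 FPKM over the 12 libraries. It was followed by ATP6, the proton channel subunit of complex V, at 7342.3 FPKM. COX2 was at 6970.7 and COX3 at 6768.1 FPKM. CYTB, the cytochrome b of complex III, had 3787.6 FPKM. The complex I subunits followed, with ND1 at 2770.8, ND2 at 2718.6, ND4 at 2431.2 and ND3 at 1837.6 FPKM. ATP8 was at 1331.4, ND4L at 1324.0 and ND5 at 1178.6 FPKM. ND6 was lowest at 85.9 FPKM, 13.7-fold below ND5.

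The order was nearly the same in every library. COX1 was above ATP6, COX3 above CYTB, CYTB above ND1, ND2 above ND4, ND4 above ND3, ND3 above ATP8 and ND5 above ND6 in 12 of 12 libraries with ranges that did not overlap. Neighbours that were not set apart were COX2 and COX3 (COX2 higher in 10 of 12 libraries), ND1 and ND2 (ND1 higher in 11) and ATP8 and ND4L (ATP8 higher in 7). For ATP6 over COX2 and ND4L over ND5 the order held in all 12 libraries although the ranges overlapped. ND6 is known as the only one of the 13 that is encoded on the light strand. Whether the counting used strand is not stated, so reads of ND6 and of antisense transcripts cannot be told apart. ATP8 overlaps ATP6 and ND4L overlaps ND4 in the mitochondrial DNA, so their values depend on how shared reads were assigned. ND4L and ATP8 also had the widest spread between libraries of a group among the mitochondrial genes, an SD of 0.146 on the log2 scale for each.

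**Figure D1:**
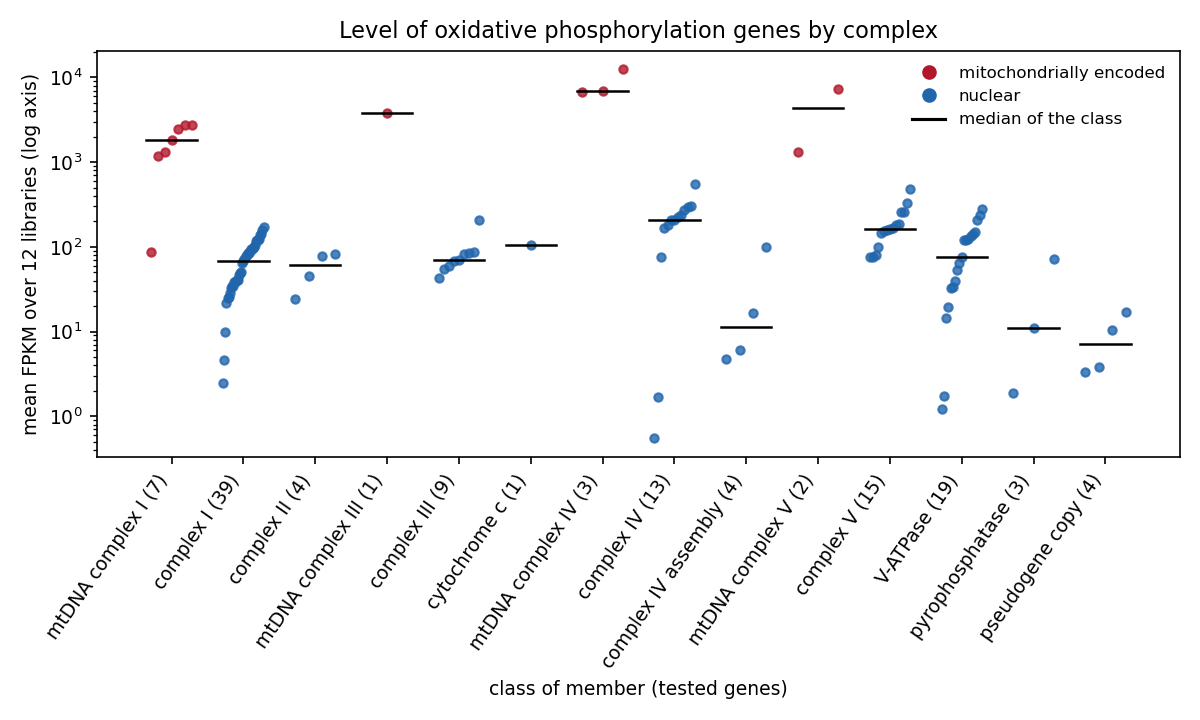
Mean FPKM over the 12 libraries (log axis) of the 124 tested oxidative phosphorylation genes, 1 point per gene, by complex and genome of origin, with the number of genes in brackets and the class median as a line. The mitochondrial genes lie between 1178.6 and 12490.3 FPKM except ND6 at 85.9 FPKM, and the nuclear genes of complexes IV and V have higher medians (206 and 162 FPKM) than those of complexes I to III (61.2 to 69 FPKM).

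Nuclear subunits of one complex differed widely in level. The range was 2.45 to 170 FPKM in complex I, 24.4 to 81.5 in complex II, 42.4 to 210 in complex III and 0.552 to 558 over the tested genes of complex IV. The median was 67.3 FPKM over 39 genes of complex I, 61.2 over 4 of complex II, 69 over 9 of complex III, 206 over 13 tested genes of complex IV and 162 over 15 of complex V. In complex I, Ndufb8 (170 FPKM) and Ndufa13 (157 FPKM) were highest. In complex II, the subunits Sdhb (81.5 FPKM) and Sdhc (77.6 FPKM) stood above Sdha, the flavoprotein, at 24.4 FPKM. In complex III, Uqcrh (210 FPKM) and Uqcrc1 (87.4 FPKM) led. In complex IV, Cox6a1 (558 FPKM) and Cox4i1 (305 FPKM) led. In complex V, Atp5f1b, the catalytic β subunit, had 484 FPKM and Atp5mg 330 FPKM. Every one of the 15 complex V genes was between 76.4 and 484 FPKM. Cycs, the soluble electron carrier cytochrome c, was at 104 FPKM. The V-ATPase genes had a median of 75.5 FPKM, led by Atp6v0c (283 FPKM), the membrane ring subunit, and Atp6v1g1 (238 FPKM).

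Complex IV subunits with tissue isoforms were read almost entirely from the common isoform. Cox6a1 stood at 558 FPKM and its muscle isoform Cox6a2 at 0.552 FPKM (2 to 25 reads per library). Cox4i1 was at 305 FPKM, against 0.183 FPKM for Cox4i2, the isoform known from lung and hypoxic cells (0 to 16 reads). Cox8a was at 295 FPKM, against 0.165 FPKM for the muscle isoform Cox8b (0 to 6 reads) and 1 read over all libraries for the testis isoform Cox8c. Cox6b1 was at 227 FPKM, and its testis isoform Cox6b2 had 1 read in all. Cox7a2 was at 180 FPKM, against 0.156 FPKM for the muscle isoform Cox7a1, which the table lists as LOC687508. The Cox7a2-like gene Cox7a2l, a factor of supercomplex assembly, was at 75.1 FPKM. Ndufa4, which the pathway lists in complex I but which is known as a subunit of complex IV, was at 94.4 FPKM, and Ndufa4l2, its hypoxia-related paralogue, at 4.65 FPKM. The 3 genes for the identical c subunit of complex V were all expressed, with Atp5mc3 at 256, Atp5mc2 at 181 and Atp5mc1 at 79.6 FPKM.

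Copies and naming limit some of these values. RefSeq names LOC100363268, LOC100363502, LOC684509, RGD2320734 and the entry listed as Ndufs6 as pseudogene copies of Ndufs5, Cycs, Ndufa3, Uqcr10 and Ndufs6, and the coding Ndufs6 is the entry LOC679739. The latter was at 24.9 FPKM and the copy at 3.37 FPKM. The copies of Cycs and Ndufa3 were at 17.2 and 10.5 FPKM. Reads shared between a gene and a near-identical copy could have been split or dropped, so the values of both are uncertain.

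The share of all expression taken by these genes was similar in the 4 groups. The 13 mitochondrial genes held 10.9 to 11.1% of the summed FPKM in control, 10.8 to 11.8% after menthol, 11.1 to 11.2% after Wnt3a and 10.8 to 11.2% after both. The means were 11 ± 0.127%, 11.3 ± 0.526%, 11.1 ± 0.0573% and 11.1 ± 0.185% (SD, n = 3). The groups overlapped, and menthol held both the highest library (11.8%) and a library at the lowest value (10.8%). The 123 nuclear genes held 2.45 to 2.49% in control, 2.49 to 2.54% after menthol, 2.52 to 2.59% after Wnt3a and 2.46 to 2.55% after both. The 3 Wnt3a libraries thus lay above the 3 control libraries.

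**Figure D2:**
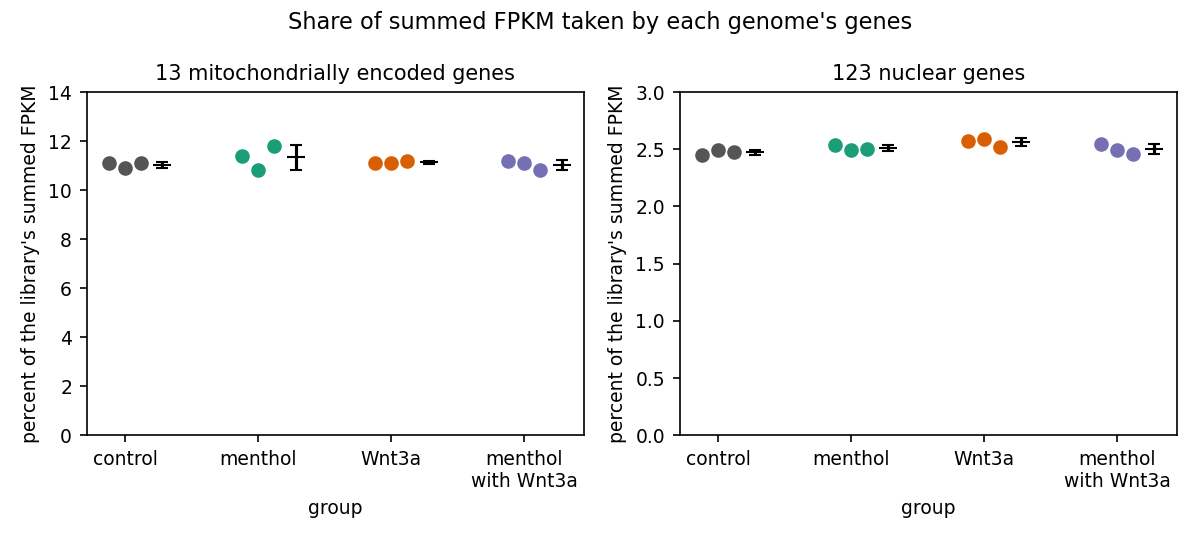
Percent of each library's summed FPKM held by the 13 mitochondrially encoded genes (left) and the 123 nuclear genes (right), 1 point per library with the group mean ± SD (n = 3) beside it. The mitochondrial share is 10.8 to 11.8% in all libraries and the groups overlap, and the nuclear share is 2.45 to 2.59%.

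No oxidative phosphorylation gene passed the threshold of the study's design, more than 2-fold at an adjusted p below 0.05, in any of the 6 comparisons of the limma fit over all 11451 tested genes. Of all tested genes, 0.00873% were called with menthol and 0.0175% with Wnt3a, each compared with control. The share called was 0% when the combination was set against Wnt3a, menthol or control, and 0% for the interaction of menthol and Wnt3a. No member passed the adjusted p alone either, against 0.105% of all genes for menthol, 0.437% for Wnt3a, 0.0524% for both against Wnt3a, 0.0961% for both against menthol, 0.83% for both against control and 0% for the interaction. With limma voom on whole reads recovered from the FPKM values, 4 members passed the adjusted p for Wnt3a against control. The share of all tested genes under that fit is not given here, so the 4 cannot be read against a background. Over the 106 members with at least 20 FPKM, the 95% intervals of the log2 fold change all lay between -0.28 and 0.42 for menthol, -0.18 and 0.44 for Wnt3a, -0.43 and 0.16 for both against Wnt3a, -0.33 and 0.23 for both against menthol, -0.35 and 0.39 for both against control, and -0.54 and 0.19 for the interaction. All fold changes are on the scale of log2(FPKM + 0.1).

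The first question was what menthol did on its own. Most members were slightly above control, with 93 of 124 higher and a median log2 fold change of 0.032 against -0.002 over all tested genes. Of all 11451 tested genes, 5628 were higher. Of the 410 other genes under 1 kb with a mean of at least 20 FPKM, called the other short genes here, 300 were higher. At an unadjusted p under 0.05, 15 members were higher, 12.1% against a background of 4.51%, and 1 was lower, against 4.82%. Among the other short genes, 10% were higher and 1.71% lower. The mitochondrial genes had a median of 0.055, with 10 of 13 higher. Menthol library 2 lay below the control mean, with a median difference of -0.028, and the median of the comparison was 0.093 without that library and 0.031 without menthol library 3. The nuclear median was 0.027, and it was 0.009 without menthol library 1 and 0.013 without control library 1. CYTB was at 3984.4, 3803.4 and 4090.2 FPKM with menthol and at 3795.6, 3673.5 and 3766.3 FPKM in control. The menthol libraries all lay above the controls, the lowest by a small margin, and the log2 fold change was 0.08 ± 0.03 (SE; limma, adjusted p = 0.423). COX1 was at 12992.5, 11969.9 and 13089.9 FPKM against 12169.8, 12108.0 and 12335.9 FPKM, so the groups overlapped (0.05 ± 0.04, adjusted p = 0.692, limma).

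The smallest p-values with menthol belonged to small subunits of complexes IV and I. Cox6a1 was at 588, 559 and 566 FPKM with menthol and at 522, 521 and 520 FPKM in control, with no overlap (log2 fold change 0.13 ± 0.04, limma adjusted p = 0.279). Cox7b, another complex IV subunit, was at 249, 233 and 254 FPKM against 226, 222 and 235 FPKM, and the groups overlapped (0.11 ± 0.03, adjusted p = 0.354, limma). Ndufc2 of complex I was at 112, 106 and 111 FPKM against 102, 105 and 100 FPKM (0.10 ± 0.03, adjusted p = 0.37, limma). By complex, the median was 0.021 for complex I, -0.014 for complex II, 0.034 for complex III, 0.051 for complex IV, 0.034 for complex V and 0.059 for the V-ATPase.

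Wnt3a against control gave the widest one-sided shift of the 5 pairwise comparisons. Of 124 members, 115 were higher, with a median log2 fold change of 0.074, a median difference of 5.28%, against 0.004 over all tested genes. Higher values were found for 5913 of all 11451 tested genes and for 373 of the 410 other short genes. At an unadjusted p under 0.05, 36 members were higher, 29% against a background of 8.17%, and 0 were lower, against 6.91%. Among the other short genes, 41.7% were higher and 0.488% lower. All 3 Wnt3a libraries lay above all 3 controls for 41 members, 33.1% against 10.1% of all genes and 37.1% of the other short genes. The median was 0.080 for the nuclear and 0.047 for the mitochondrial genes. By complex it was 0.080 for complex I, 0.041 for complex II, 0.085 for complex III, 0.094 for complex IV, 0.083 for complex V and 0.081 for the V-ATPase. All 9 tested genes of complex III and all 15 of complex V were higher, 2 and 7 of them at an unadjusted p under 0.05.

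The smallest p-values with Wnt3a were those of V-ATPase subunits and again Cox6a1. Atp6v1e1, a stalk subunit of the pump, was at 124, 123 and 125 FPKM with Wnt3a and at 110, 117 and 114 FPKM in control (log2 fold change 0.13 ± 0.03, limma adjusted p = 0.0776). Atp6v0e1, a membrane subunit, was at 132, 130 and 125 FPKM against 117, 116 and 120 FPKM (0.13 ± 0.03, adjusted p = 0.0776, limma). Cox6a1 was at 590, 596 and 568 FPKM against 522, 521 and 520 FPKM (0.17 ± 0.04, adjusted p = 0.0796, limma). None of the 3 overlapped between the groups, and their adjusted p ranged from 0.0483 to 0.326, 0.037 to 0.382 and 0.0122 to 0.347 over the alternatives. Other abundant subunits of complexes IV and V lay on either side of the median difference of the members. Atp5mg had a log2 fold change of 0.08 ± 0.05 (adjusted p = 0.475, limma), Cox8a of 0.09 ± 0.04 (adjusted p = 0.31, limma) and Cox6c of 0.171 ± 0.045 (adjusted p = 0.102, limma). Atp5f1b was at 487 ± 11 FPKM against 481 ± 5.46 in control (0.02 ± 0.03, adjusted p = 0.793, limma), and Cox4i1 at 308 ± 10.9 FPKM against 304 ± 4.62 (0.02 ± 0.03, adjusted p = 0.824, limma).

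Among the mitochondrial genes, Wnt3a against control gave log2 fold changes from -0.01 (ND6) to 0.16 (ND4L). ND4L was at 1782.4, 1419.0 and 1245.8 FPKM against 1416.0, 1206.9 and 1322.9 FPKM, and 1 Wnt3a library was well above the rest while the groups overlapped (0.16 ± 0.09, adjusted p = 0.456, limma). CYTB differed by less than the spread between libraries, at 3744.1 ± 25 FPKM against 3745.1 ± 63.7 FPKM, a difference with a 95% interval of -0.06 to 0.06. Only ND4 was past an unadjusted p under 0.05 (0.06 ± 0.03, adjusted p = 0.296, limma).

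**Figure D3:**
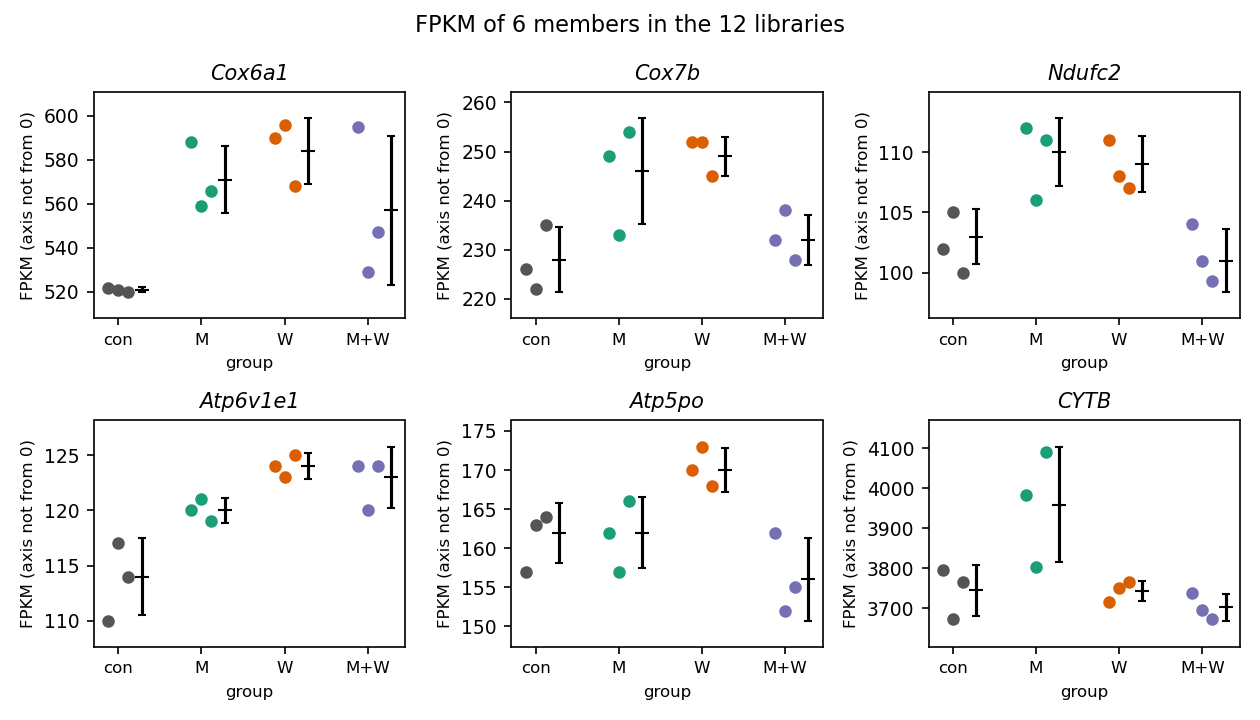
FPKM of 6 members in each library (points) with the group mean ± SD (n = 3), abbreviated as con for control, M for menthol, W for Wnt3a and M+W for the combination; the axes do not start at 0. Control libraries lie below Wnt3a libraries for Cox6a1, Cox7b, Ndufc2, Atp6v1e1 and Atp5po but not for CYTB, and the libraries with both agents lie below those with Wnt3a for Cox7b, Ndufc2 and Atp5po.

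The study asked how menthol acts on cells that receive Wnt3a. In cells given both, 105 of 124 members were below the Wnt3a group, with a median log2 fold change of -0.054 against -0.002 over all genes. Lower values were found for 5810 of all 11451 tested genes and for 350 of the 410 other short genes. At an unadjusted p under 0.05, 25 members were lower, 20.2% against a background of 7.37%, and 1 was higher, against 7.13%. Among the other short genes, 22% were lower and 0.732% higher. All 3 libraries with both agents lay below all 3 Wnt3a libraries for 21 members. That was 16.9%, against 8.57% of all genes and 15.6% of the other short genes. This comparison uses the same Wnt3a libraries as the one above, so the high side of the first and the low side of the second are not independent. Atp5po, the stalk subunit of complex V also called OSCP, was at 162, 152 and 155 FPKM with both and at 170, 173 and 168 FPKM with Wnt3a, with no overlap (-0.12 ± 0.03, limma adjusted p = 0.132). Ppa1 was at 73.2, 69.8 and 67 FPKM against 74.4, 77.9 and 76.1 FPKM (-0.12 ± 0.03, adjusted p = 0.151, limma). The Cycs copy LOC100363502 was at 17.8, 16.5 and 14.5 FPKM against 20.9, 20.3 and 17 FPKM and overlapped (-0.26 ± 0.08, adjusted p = 0.169, limma). The median was -0.063 for complex I, -0.079 for complex IV, -0.059 for complex V and -0.033 for the mitochondrial genes.

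Against menthol alone and against control, cells given both differed little. Against menthol, 3 members were higher and 7 lower at an unadjusted p under 0.05 (backgrounds of 3.45% and 3.27%), and the median was -0.008. Cox6a2 was at 0.1, 0.197 and 0.301 FPKM with both and at 1.25, 0.799 and 0.595 FPKM with menthol (-1.71 ± 0.44, limma adjusted p = 0.318). The difference rests on 2 to 6 reads per library with both and 12 to 25 with menthol. Cox6a2 reached the minimum for testing only through the means with menthol (0.88 FPKM) and Wnt3a (0.749 FPKM). Those of control (0.379 FPKM) and both (0.199 FPKM) lay below it, so this contrast is no support for a difference. Of the 20 skeletal muscle markers in the table, 16 had a mean under 0.5 FPKM, and Ckm was at 0 in some libraries while Mb was at 0.0816 to 2.04 FPKM. Without the pathway's own genes, their summed level was 8.97 to 10.5 FPKM in control, 8.95 to 10.9 FPKM with menthol, 10.8 to 12.1 FPKM with Wnt3a and 8.83 to 11.3 FPKM with both, so menthol and both overlapped. Most of this was Tnnt3, at 5.93 to 8.71 FPKM, and without it the sums were 1.79 to 2.71, 2.63 to 4.93, 2.53 to 4.07 and 1.85 to 3.89 FPKM in the same order. The 7 cardiac muscle markers summed to 2.59 to 3.16 FPKM in control and 4.05 to 6.65 FPKM with menthol, which did not overlap. With Wnt3a their sum was 3.19 to 5.56 FPKM and with both 2.72 to 6.71 FPKM, so menthol and both overlapped. The part of either marker list in the Cox6a2 values was not tested. Atp6v1b1, the kidney isoform of a V-ATPase subunit, was at 1.64, 2.21 and 2.05 FPKM against 1.41, 1.44 and 1.37 FPKM (0.45 ± 0.12, adjusted p = 0.321, limma). Ndufc2 was at 104, 101 and 99.3 FPKM against 112, 106 and 111 FPKM (-0.11 ± 0.03, adjusted p = 0.364, limma).

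Against control, 11 members were higher and 3 lower at an unadjusted p under 0.05 with both agents (backgrounds of 6.74% and 6.76%), and the median was 0.029. Atp6v1e1 was at 124, 120 and 124 FPKM, above the 110 to 117 FPKM of the controls (0.11 ± 0.03, adjusted p = 0.0986, limma). Cox7a2l was at 81, 75.3 and 76.6 FPKM against 70.3, 71.6 and 71.1 FPKM, with no overlap (0.13 ± 0.03, adjusted p = 0.108, limma). The Ndufa3 copy LOC684509 was at 8.49, 9.67 and 7.47 FPKM against 11.3, 12 and 9.67 FPKM, and the groups met at 9.67 FPKM (-0.36 ± 0.12, adjusted p = 0.184, limma). The mitochondrial genes had a median of 0.015, with 9 of 13 higher, and the median went to -0.005 without library 1 of the group with both and to 0.039 without its library 3.

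The interaction term tests whether the effect of menthol differed with and without Wnt3a. It was negative for 112 of 124 members, with a median of -0.088 against 0.001 over all genes. For the mitochondrial genes it was negative for 13 of 13, with a median of -0.096. Negative values were found for 5672 of all 11451 tested genes and for 366 of the 410 other short genes. At an unadjusted p under 0.05, 28 members were negative, 22.6% against a background of 3.89%, and 0 were positive, against 3.09%. Other short genes gave a like share, with 23.2% negative and 0.244% positive, and 23.8% of the cytosolic ribosomal protein genes were negative. No member passed the adjusted p, and the lowest over the members was 0.715. The smallest unadjusted p-values were those of Ndufc2 (-0.20 ± 0.04), Cox7b (-0.21 ± 0.05) and Cox6a1 (-0.20 ± 0.05). For Ndufc2, the mean was 103 ± 2.3 FPKM in control, 110 ± 2.81 after menthol, 109 ± 2.3 after Wnt3a and 101 ± 2.61 after both. For Cox7b they were 228 ± 6.66, 246 ± 10.8, 249 ± 3.97 and 232 ± 5.1 FPKM. Either agent alone thus gave a higher mean than the control or the combination for both genes. The interaction shares all its libraries with the pairwise comparisons and is no separate evidence.

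Other short genes lay above control in the same libraries as the members, and members of 1 kb or more did so too with Wnt3a. Oxidative phosphorylation genes are short, with 67 of the 124 tested members (54%) under 1 kb against 8.17% of all tested genes, taking the gene length implied by the FPKM steps. The median log2 difference of the members from the control mean was 0.063, 0.004 and 0.029 in the menthol libraries, 0.088, 0.109 and 0.035 in the Wnt3a libraries and 0.060, 0.017 and -0.000 in those with both. The 410 other genes under 1 kb with at least 20 FPKM gave 0.069, 0.011 and 0.024, then 0.106, 0.128 and 0.041, then 0.064, 0.026 and 0.006. The 3150 other abundant genes of 1 kb or more stayed between -0.006 and 0.012 in every library. For Wnt3a against control, 171 of the 410 short genes were higher and 2 lower at an unadjusted p under 0.05, with a median of 0.093, against a median of 0.006 for the longer genes. The median was 0.081 for members under 1 kb and 0.066 for those of 1 kb or more. Of the 57 longer members, 15 were higher at that level, 26.3% against 11.1% of the 3150 other longer genes, and 0 were lower, against 10.8%. Their median difference from the control mean was 0.062, 0.102 and 0.044 in the 3 Wnt3a libraries. The 84 cytosolic ribosomal protein genes, which make the cell's main ribosomes, had a median of 0.112. For the interaction, the medians were -0.091 for the short genes, -0.093 for the ribosomal protein genes, -0.114 for members under 1 kb and -0.061 for longer members.

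**Figure D4:**
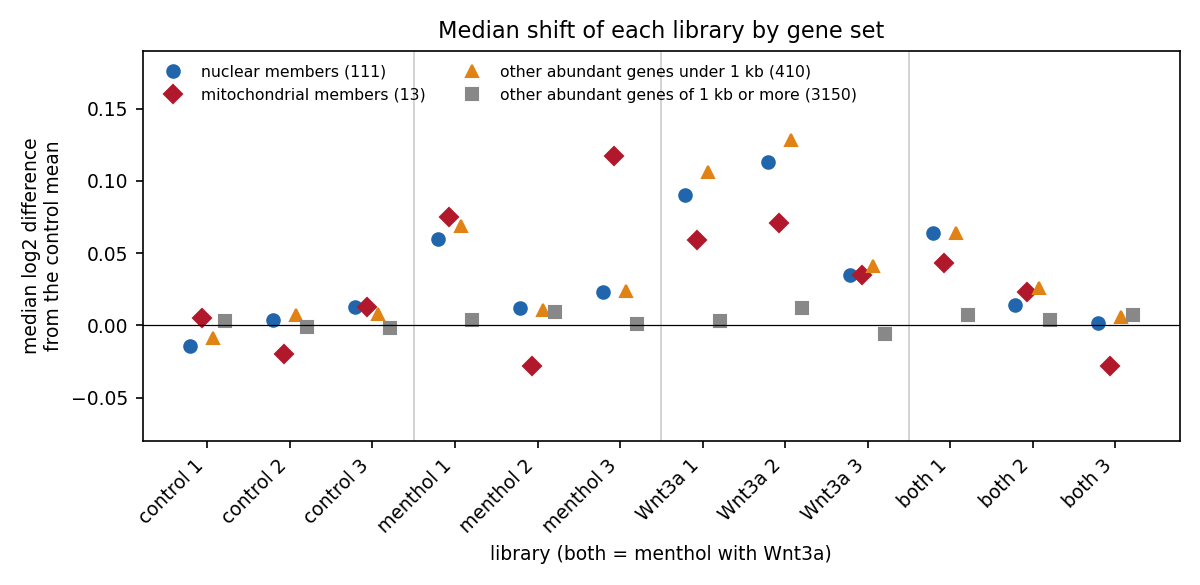
Median log2 difference from the control mean in each library for nuclear members, mitochondrial members, other abundant genes under 1 kb and other abundant genes of 1 kb or more, with the number of genes in brackets. Nuclear members follow the other short genes from library to library (0.113 and 0.128 in Wnt3a library 2), longer genes stay near 0, and mitochondrial members reach 0.117 in menthol library 3.

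When the trend of each library with gene length was estimated on abundant genes outside the pathway and removed, the medians of the members came closer to 0 with Wnt3a against control, but a larger share of the members than of the other abundant genes was still higher at an unadjusted p under 0.05. This comparison was added after the data were seen. For Wnt3a against control, the median over the members went from 0.074 to 0.013, and the members higher at an unadjusted p under 0.05 from 36 to 17 of 124 (13.7%), with 1 lower. Of the 410 other short genes, on which the trend was in part estimated, 18 were then higher (4.39%) and 21 lower. Of the longer members 12 of 57 were higher (21.1%), against 9.08% of the other longer genes, and of the members under 1 kb 5 of 67 (7.46%). The median of the members under 1 kb was then -0.013, with 27 higher and 40 lower at any p. No member passed the adjusted p after this step. The mitochondrial median went to the other side of 0, from 0.047 to -0.018. For both against Wnt3a, 10 members rather than 25 were lower and the median was -0.005. These 8.06% lay between 3.66% of the other short genes and 9.59% of the other longer genes. For the interaction, 9 rather than 28 were negative at that level, and the median was -0.015. The share was 7.26%, against 1.95% of the other short and 2.1% of the other longer genes. For menthol against control, 6 rather than 15 were higher (4.84%, against 5.12% and 5.87%). The mitochondrial median was 0.033 with 9 of 13 higher. For both against control the balance turned over, from 11 higher and 3 lower to 7 higher and 11 lower. The 5.65% higher stood against 9.51% of the other short and 9.49% of the other longer genes. The 8.87% lower lay between 7.56% of the other short and 10.5% of the other longer genes. Whether fragment length or RNA quality differed between the libraries was not tested.

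**Figure D5:**
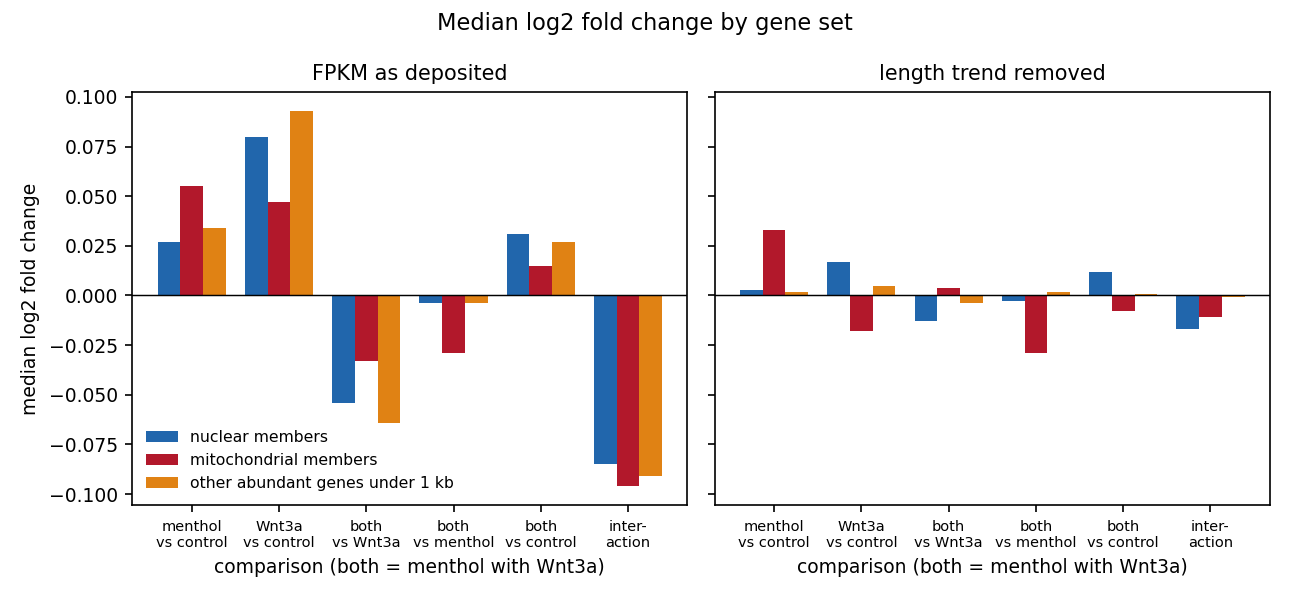
Median log2 fold change in each of the 6 comparisons for 111 nuclear members, 13 mitochondrial members and 410 other abundant genes under 1 kb, with the FPKM as deposited (left) and with the trend of each library with gene length removed (right). With Wnt3a against control the nuclear median goes from 0.080 to 0.017 and that of the other short genes from 0.093 to 0.005, and the mitochondrial median goes from 0.047 to -0.018.

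Genes that build or serve the respiratory chain but lie mostly outside the pathway list had smaller medians than the members with Wnt3a against control. This did not hold in every comparison. For menthol against control, the genes for mitochondrial DNA expression had a median of 0.046, against 0.032 over the members. For both against control it was 0.046, against 0.029. With Wnt3a against control, the median was 0.037 over 43 assembly factors (4 of them members), 0.042 over 27 genes for mitochondrial DNA expression, 0.041 over 17 genes of the citric acid cycle (4 of them members) and 0.045 over 73 mitochondrial ribosome genes. At an unadjusted p under 0.05, 4 assembly factors were higher and 2 lower, 2 and 1 genes of mitochondrial DNA expression, 3 and 0 of the citric acid cycle and 11 and 0 of the mitochondrial ribosome, against the same backgrounds of 8.17% and 6.91%. None passed the adjusted p in any of the 6 comparisons. Tfam, which packages mitochondrial DNA and helps to start its transcription, was at 31.4 to 37.3 FPKM. Its log2 fold change was 0.10 ± 0.04 for menthol (limma, adjusted p = 0.503) and -0.04 ± 0.04 for Wnt3a (limma, adjusted p = 0.729). Polrmt, the mitochondrial RNA polymerase, was at 7.53 to 9.43 FPKM, Gabpa at 16 to 18.5 FPKM and Nrf1 at 2.54 to 3.15 FPKM. The coactivators of mitochondrial biogenesis Ppargc1a and Ppargc1b were at 0.233 to 0.504 and 0.103 to 0.308 FPKM and below the minimum for testing.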

How the data were processed

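RNA from 12 ND7/23 libraries, 3 for each of 4 groups given by the sample labels, was analysed. By the submitters' processing notes and the paper's methods, reads were filtered with fastp, aligned with HISAT to the rat build mRatBN7.2 and counted with HTSeq. The authors then computed FPKM, and these FPKM values, 1 column per library, are what they deposited. FPKM scales by gene length and depth and does not remove a trend that differs with gene length between libraries. Whether the counting used strand is not given in the sources used here.

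Members were the genes with rno00190 in the table's pathway annotation. The members, gene lists and tests were chosen with earlier results of these data known. Complexes were assigned by symbol and RefSeq biotype. The test was limma 3.58.1 in R 4.3.3 on log2(FPKM + 0.1). It covered the 11451 genes whose mean reached 0.5 FPKM and fitted the 4 groups together, with a variance trend and without a replicate block, and p-values were adjusted over all of them by the Benjamini-Hochberg method. Whole reads were recovered from the FPKM steps (21556 of 21556 genes within a relative tolerance of 1e-06), giving 36914010 to 38836269 reads per library, gene lengths (a whole number of bases for 97.6% of genes) and a voom fit. A floor of 3 reads is 0.0772 to 0.0813 FPKM on a gene of 1 kb and covers counting error only. The scripts were tested on simulated data.

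Genes were named by a fixed rule: every mitochondrial member, the 2 most abundant nuclear members of each complex, members past the adjusted p, the 3 with the smallest p in each comparison, tissue isoforms, and the regulators of mitochondrial DNA expression. The genes with a TCF/LEF motif, ND4, Cox6c, Cox8a and the pseudogene copies were named after their values were seen. The length trend was a lowess curve of each library's deviations on log2 length over non-member genes with at least 20 FPKM. Alternatives were other pseudocounts and minimums, median centring, fits of only the groups compared, a replicate block, voom, and leaving out each library. Figures were drawn with matplotlib 3.10.9.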

Additional observations from a re-analysis of the deposited data

How the results depend on the processing

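No member was called at more than 2-fold under any alternative, and none of the leading genes reversed. For the 18 leading gene and comparison pairs, 280 values kept their direction and their side of the adjusted p, and 4 passed it, all for Wnt3a against control: Cox6a1 and Atp6v1e1 with voom (0.0122 and 0.0483), and Cox6a1 and Atp6v0e1 without Wnt3a library 3 (0.0404 and 0.037). Of the changes of the planned settings, limma voom on recovered reads put 4 members past the adjusted p for Wnt3a against control. The next counts are at an unadjusted p under 0.05. No FPKM minimum left 9 members higher for menthol against control. Fitting only the groups compared left 4 lower for both against menthol, and median centring left 6 higher for both against control. The share of all tested genes under these settings is not given here, so none of these counts has its background beside it. Removing the gene length trend, chosen after seeing the data, left 6 members higher with menthol, 17 with Wnt3a and 7 with both against control (11 were then lower, against 3 before), 10 lower for both against Wnt3a and 9 negative for the interaction. It moved the nuclear medians to 0.017 (Wnt3a), -0.013 (both against Wnt3a) and -0.017 (interaction) and the mitochondrial medians to -0.018 (Wnt3a) and -0.011 (interaction). Leaving out 1 library gave 9 to 23 members higher with menthol, and 25 to 55 higher and 0 to 9 past the adjusted p with Wnt3a. It gave 14 to 38 lower for both against Wnt3a and 4 to 13 lower for both against menthol. It gave 5 to 12 higher for both against control and 16 to 39 negative for the interaction. The share of all tested genes in each of these fits is not given here, so the counts have no background beside them. The 55 and the 9 came without Wnt3a library 3, the 14 without Wnt3a library 2, the 9 and the 23 for menthol without menthol libraries 1 and 2, the 5 without library 1 of the group with both, and the 16 without its library 3. Mitochondrial medians ranged from 0.031 to 0.093 for menthol, -0.005 to 0.039 for both against control, -0.059 to -0.02 for both against Wnt3a, -0.079 to -0.008 for both against menthol and -0.14 to -0.072 for the interaction, and the nuclear median of the interaction from -0.117 to -0.063. The nuclear median ranged from 0.009 to 0.038 for menthol, 0.012 to 0.043 for both against control and -0.025 to 0.011 for both against menthol, where it was -0.004 and turned positive without menthol library 1 or library 3 of the group with both. The causes were not tested.

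The mitochondrial share depends on its unit. As a share of recovered reads it was 4.99, 5.2, 5.15 and 5.08% in control, menthol, Wnt3a and both. As a share of the summed FPKM without COX1 it was 8.33, 8.57, 8.45 and 8.31%, and without the overlapping genes ATP6, ATP8, ND4 and ND4L it was 8.33, 8.6, 8.4 and 8.39%.

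Replicate numbers did not pair the libraries. Of 18 same-numbered pairs of libraries, 1 had a correlation of its deviations over 0.1 (range -0.0551 to 0.153). With the replicate block, 17 members were higher with menthol, 40 with Wnt3a and 11 with both against control. For both against Wnt3a 30 were lower, and 29 were negative for the interaction. The share of all tested genes under the block is not given here, so these counts describe the members only. The block changed no call.

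Members with few reads limit what can be said: Cox6a2, Cox4i2 and Cox8b had 0 to 25 reads per library, so differences as small as those of the abundant members were not detectable in these isoforms at this depth.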

Other observations

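Further genes of the pathway are given here by level. The V-ATPase isoforms known from kidney, bone or testis were low, with Atp6v0a4 at 1.21 and Atp6v1b1 at 1.76 FPKM, and Atp6v1c2, Atp6v1e2 and Atp6v0d2 at 0.424, 0.135 and 0.025 FPKM. Atp6v1g2, the G subunit isoform known from neurons, was at 0.217 FPKM, against 238 FPKM for the common Atp6v1g1. Tcirg1, the a3 subunit known from osteoclasts, was at 33.8 FPKM beside 32.6 FPKM for Atp6v0a1, the a1 subunit known from neurons. Atp6ap1, an accessory subunit, was at 149 FPKM. Of the complex IV assembly genes, Cox17, a copper chaperone, was at 98.9 FPKM, against 16.6, 6.01 and 4.7 FPKM for Cox15, Cox11 and Cox10, which serve heme and copper insertion. Mitochondrial Ppa2 was at 11 FPKM and cytosolic Ppa1 at 72.2 FPKM. In complex I, Ndufa10 was at 9.84 FPKM and its paralogue Ndufa10l1 at 2.45 FPKM, the lowest of the 39 genes.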
